A study of Mus musculus with 12 samples.

Results

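Tem1, listed in the files as Cd248 and also called endosialin, is a transmembrane C-type lectin-like protein of stromal cells. Scars of mice without it were compared here with scars of wild-type mice over both treatments of the study at once. All 12 deposited libraries were used, 6 from Tem1lacZ/lacZ mice and 6 from Tem1WT/WT mice, which is every library of the series. The question was which transcripts differed by genotype whatever the treatment. Each genotype held 3 sham scars (called WTSH and lacZSH by the submitters) and 3 traction scars (WTTR and lacZTR). The mice were male and 8 to 12 weeks old, and a 1.5 cm split wound was made in the back skin. A plastic device was placed on day 6 in all 4 groups. In traction groups it stretched the scar by 1 mm a day to 8 mm in all, and in sham groups it applied no force. Tem1 has 1 exon, and in Tem1lacZ/lacZ mice a lacZ reporter takes its place in every cell of the body, so that fibroblasts, pericytes and all other scar cells lacked it. The line had been backcrossed to C57BL/6 J mice, and whether the Tem1WT/WT mice were littermates was not given in the sources used here. Library totals ran from 41536788 to 64644293 counts, and each library came from a part of the scar of its own mouse, so p-values measure the spread between mice of a group. In whole scar tissue, fewer cells of a type and less RNA per cell cannot be told apart.

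In skin, Tem1 is known from dermal fibroblasts, pericytes and activated stromal cells of wounds and tumours. It binds matrix proteins such as fibronectin and collagens and belongs to a small lectin family with thrombomodulin, Cd93 and Clec14a. The study asks how Tem1 bears on TGF-β signaling, the main driver of collagen synthesis by myofibroblasts in scars.

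Across the 18853 genes tested, 3 differed by genotype in edgeR's quasi-likelihood test with genotype and treatment as additive terms, at a Benjamini-Hochberg adjusted p under 0.05. They make up 0.0159% of the genes tested. Cd248 itself and Rest, which encodes a repressor of neuronal genes, fell in Tem1lacZ/lacZ scars, and Erdr1, a gene of the pseudoautosomal region shared by X and Y, rose. The line between called and not called was thin. The fourth smallest edgeR adjusted p was 0.0581, 61 genes lay under 0.06 and 2345 under 0.1. At an unadjusted p under 0.05 there were 5091 genes (27.0%), of which 2857 (15.2%) were lower and 2234 (11.8%) higher in Tem1lacZ/lacZ. With the same model, DESeq2's Wald test called 2741 genes (14.5%), 1722 of them lower (9.13%) and 1019 higher (5.40%). Limma-voom with sample weights called 1574 (8.35%), of which 1441 were also called by DESeq2. The number of genes called thus ran from 3 to 2741 with the test used, and the cause was not tested.

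Cd248 was read first, since it checks the labels. In WTSH scars it stood at 119, 138 and 193 CPM, which are reads scaled to a common library size,, and in WTTR scars at 92.4, 197 and 337 CPM. In lacZSH scars it stood at 0.0952, 0.190 and 0.0807 CPM and in lacZTR scars at 0, 0.248 and 0.113 CPM. The genotypes did not overlap, and every library matched its label. In raw counts the 6 Tem1WT/WT libraries held 55947 reads on the gene and the 6 Tem1lacZ/lacZ libraries 35, a ratio per library size of 1430 with a 95% interval of 1030 to 2060 that covers counting error only. The fitted log2 difference was -10.47 ± 0.55 (SE, n = 6 against 6, edgeR adjusted p = 6.24e-06), with -10.25 in sham and -10.65 in traction. Cd248 lies on chromosome 19 at 5068078 to 5070640 of GRCm38, as the RefSeq table gives it.

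Erdr1, which encodes erythroid differentiation regulator 1, was the called gene that rose. Tem1WT/WT libraries held 0.0868, 0.319 and 0.295 CPM in sham and 0.0476, 0.0662 and 0.103 CPM in traction, from 2 to 22 reads each. Tem1lacZ/lacZ libraries held 5.50, 8.19 and 4.18 CPM in sham and 4.07, 7.74 and 3.60 CPM in traction, from 165 to 406 reads each. The lowest Tem1lacZ/lacZ library was thus far above the highest Tem1WT/WT library in both treatments. The log2 difference was 5.24 ± 0.44 (SE, n = 6 against 6, edgeR adjusted p = 0.000489), with 4.63 in sham and 6.09 in traction. The RefSeq table places Erdr1 on chromosome X at 170010526 to 170018797 of GRCm38, and the Y chromosome carries a copy of this region, so how reads were shared between copies is uncertain.

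Some of the tested genes near Erdr1 on the X chromosome had differences as well. G530011O06Rik, at 169975043 to 169978917, held 3 reads over the 6 Tem1WT/WT libraries, all in WTSH replicate 3. Over the 6 Tem1lacZ/lacZ libraries it held 274 reads, with 3, 67 and 36 in sham and 55, 79 and 34 in traction. The ratio per library size was 102 with a 95% counting interval of 34.5 to 497. Its edgeR adjusted p was 0.0581, and RefSeq lists a copy of it on chromosome Y too. Mid1, a ubiquitin ligase gene that reaches into the pseudoautosomal region, went the other way. It stood at 5.36 to 12.5 CPM with a median of 6.41 in Tem1WT/WT and at 2.67 to 5.38 CPM with a median of 3.84 in Tem1lacZ/lacZ (log2 difference -0.86 ± 0.20, edgeR adjusted p = 0.0696), with the ranges just touching. Gm15230, about 3.15 Mb from Erdr1, stood at 0.0476 to 0.586 CPM in Tem1WT/WT and at 0.735 to 1.08 CPM in Tem1lacZ/lacZ (1.88 ± 0.40, edgeR adjusted p = 0.0684). Of the genes between Gm15230 and Mid1, Msl3, a gene of a histone acetyltransferase complex, had a log2 difference of 0.08 ± 0.08. Mid1, Gm15230 and Msl3 were picked after their values were seen. Of the last 15 tested genes of this end of the chromosome, 7 had an unadjusted p under 0.05, beside 27.0% of all genes. DESeq2 called 4 (Erdr1, G530011O06Rik, Mid1 and Gm15230), beside 14.5% of all genes, and gave no adjusted p for 3. These 4 had been put in a list after their values were seen, so no count over that list is given. The stretch of 15 genes was itself chosen because Erdr1 lies in it, and its 2 counts include these 4. Those counts are therefore a description and no separate support. Tlr7, Tlr8, Prps2 and Arhgap6, also in this stretch, had unadjusted p from 0.253 to 0.852.

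Rest encodes RE1-silencing transcription factor, which holds neuronal genes silent outside the nervous system. It stood at 28.7, 33.4 and 30.8 CPM in WTSH and at 60.3, 46.7 and 49.5 CPM in WTTR. In lacZSH it stood at 17.6, 15.9 and 17.8 CPM, and in lacZTR at 16.8, 26.9 and 24.9 CPM. All 6 Tem1lacZ/lacZ libraries were below all 6 Tem1WT/WT libraries, and in both genotypes the mean was higher under traction. The log2 difference was -1.02 ± 0.13 (SE, n = 6 against 6, edgeR adjusted p = 0.0299), with -0.86 in sham and -1.19 in traction. DESeq2 (adjusted p = 8.83e-09) and limma-voom (adjusted p = 0.00313) called it too. The edgeR call was lost when any of 9 of the 12 libraries was left out, with an adjusted p of up to 0.130, and the difference then lay between -1.05 and -1.01. It was kept without WTSH replicate 1, WTTR replicate 1 or lacZTR replicate 1. With a correction for gene length and GC content the difference was -0.78 (edgeR adjusted p = 0.0713). Rest lies on chromosome 5 at 77265494 to 77286432.

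Neuronal genes that Rest is known to bind were looked at in a list put together after its value had been seen. Of 15 listed, 11 passed the filter on low counts. Their median log2 difference was 0.21, beside 0.00 over all genes tested, and it turned to -0.10 without WTTR replicate 1. At an unadjusted p under 0.05, Syn1, a synaptic vesicle gene, was lower (-1.10 ± 0.43) and Stmn2, a tubulin-binding gene of neurons, was higher (0.44 ± 0.19). None of the 11 was called by edgeR, DESeq2 or limma-voom.

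**Figure D1:**
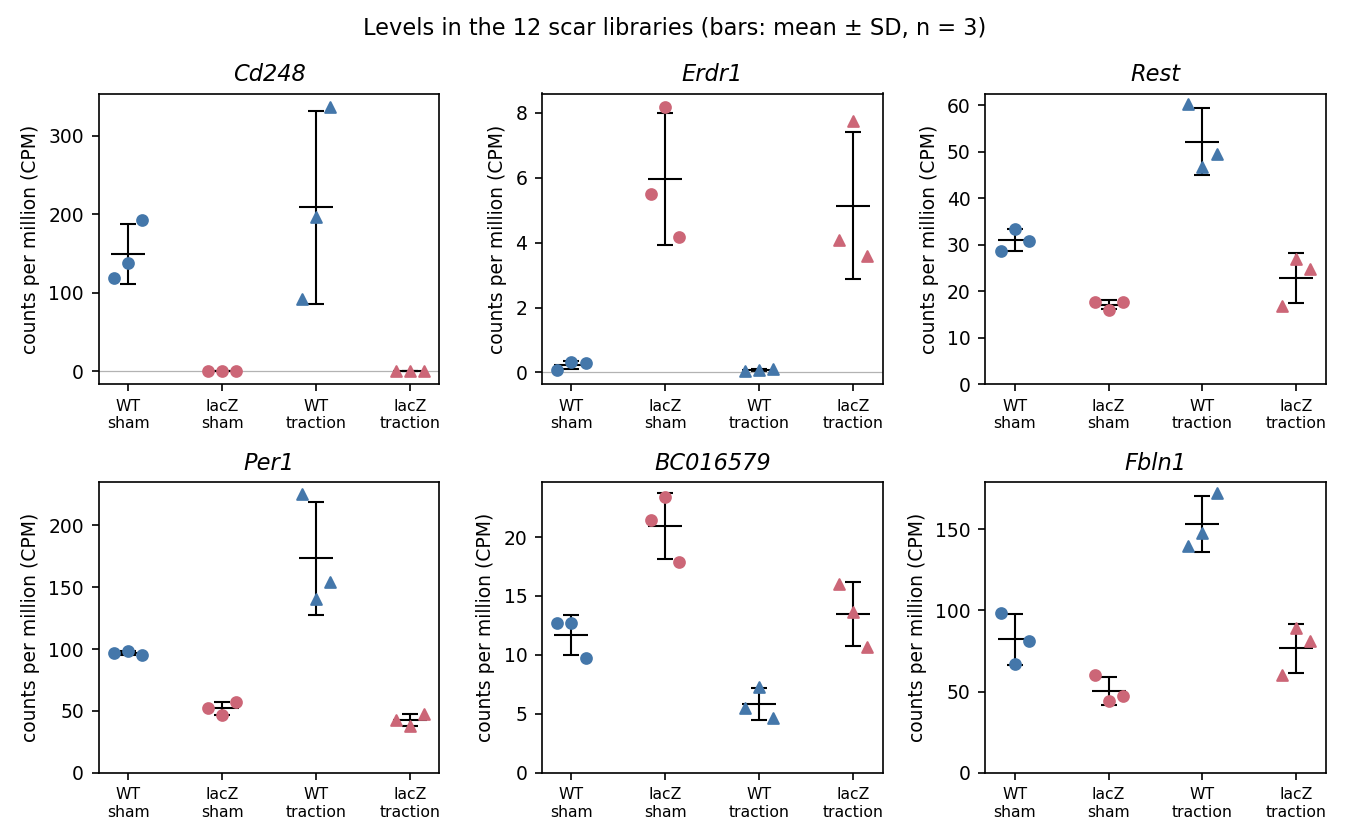
Level in CPM (counts scaled to library size) in each of the 12 scar libraries for 6 genes, with circles for sham, triangles for traction, blue for Tem1WT/WT and red for Tem1lacZ/lacZ. Black bars give the mean ± SD of 3 libraries, and within each treatment the 3 red points of every gene lie on the same side of the 3 blue points.

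The next 17 genes by p-value shared an edgeR adjusted p of 0.0581. They are given as values, since they missed the threshold, and this contrast itself chose them. Of these, 10 were lower and 7 higher in Tem1lacZ/lacZ. Together with the called genes, all 20 differed in the same direction in sham and in traction. All 20 passed DESeq2 and limma-voom, which called 14.5% and 8.35% of all genes. Within each treatment the genotypes did not overlap for any of the 20, beside 7.61% of all genes with the same direction in both. A choice by the smallest pooled p favours each of these traits, so they are no separate support. Over all 12 libraries, 13 did not overlap, and over all genes tested this held for 204 (1.08%).

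Per1, a repressor of the circadian clock that also responds quickly to cAMP and glucocorticoid signals, was lowest in p among them. In sham, Tem1WT/WT scars stood at 97.1, 98.0 and 95.2 CPM and Tem1lacZ/lacZ scars at 52.7, 46.4 and 57.1 CPM. In traction, Tem1WT/WT scars stood at 226, 140 and 154 CPM and Tem1lacZ/lacZ scars at 42.8, 37.9 and 47.5 CPM. Tem1WT/WT scars thus held more Per1 transcript under traction than under sham, whereas the 2 groups of Tem1lacZ/lacZ scars overlapped. The pooled log2 difference was -1.46 ± 0.21 (DESeq2 adjusted p = 3.02e-07), with -0.89 in sham and -2.02 in traction. The unadjusted p of the interaction was 0.000939 for Per1 and 0.00648 for Enc1, an actin-binding kelch protein, and over all genes the smallest adjusted p of an interaction in edgeR was 0.548. Without WTTR replicate 1, the library with the highest level, the difference was -1.29 and edgeR called it (adjusted p = 0.0203).

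Of the 17 other clock genes tested, 2 were lower and 0 higher at an unadjusted p under 0.05, which is near or below the 15.2% lower over all genes, and DESeq2 called 1. Their median was -0.14. Cry1, a partner of Per1 in clock repression, had a difference of -0.48 ± 0.18 (edgeR adjusted p = 0.117). The hour at which scars were taken was not given in the sources used here.

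Genes of cell shape and adhesion were among those lower in Tem1lacZ/lacZ. Srgap3 encodes a GTPase-activating protein of the Slit-Robo pathway. It ran from 13.3 to 26.9 CPM with a median of 17.2 in Tem1WT/WT and from 6.14 to 13.3 CPM with a median of 7.02 in Tem1lacZ/lacZ (-1.14 ± 0.17). Fbln1, fibulin-1 of basement membranes and elastic fibres, stood at 98.2, 67.1 and 81.1 CPM in WTSH against 60.0, 44.0 and 47.2 CPM in lacZSH. Under traction it stood at 140, 147 and 172 CPM in WTTR against 60.0, 89.0 and 80.8 CPM in lacZTR. The genotypes were apart within each treatment, while the traction scars of Tem1lacZ/lacZ mice reached the range of the WTSH scars (-0.85 ± 0.14). Tesk1, a kinase of the actin regulator cofilin, ran from 29.1 to 56.5 CPM in Tem1WT/WT and from 16.6 to 31.8 CPM in Tem1lacZ/lacZ (-0.80 ± 0.13). Enc1 ran from 65.6 to 112 CPM and from 47.2 to 57.9 CPM (-0.69 ± 0.12). Crkl, an adaptor downstream of integrins and growth factor receptors, ran from 46.8 to 71.5 CPM and from 36.5 to 44.0 CPM (-0.54 ± 0.09).

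The other genes of the lower group had separate roles. Sik1, a kinase that is itself induced by cAMP, ran from 50.4 to 78.8 CPM in Tem1WT/WT and from 30.5 to 47.1 CPM in Tem1lacZ/lacZ, without overlap (-0.76 ± 0.13). Fnip2, a folliculin partner of nutrient sensing, ran from 37.4 to 71.1 CPM and from 19.2 to 46.1 CPM (-0.83 ± 0.14). Mex3d, an RNA-binding protein, had a difference of -0.96 ± 0.16. Npc1, which carries cholesterol out of lysosomes, ran from 78.8 to 123 CPM and from 60.1 to 83.4 CPM (-0.51 ± 0.09). Fnip2, Mex3d and Npc1 overlapped between genotypes only when sham and traction libraries were pooled.

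The genes higher in Tem1lacZ/lacZ had other roles. BC016579 stood at 12.7, 12.7 and 9.70 CPM in WTSH and at 5.52, 7.31 and 4.66 CPM in WTTR, against 21.5, 23.4 and 17.9 CPM in lacZSH and 16.04, 13.7 and 10.7 CPM in lacZTR (1.02 ± 0.16). Both genotypes held less of it under traction. Dbi, the acyl-CoA binding protein, ran from 66.3 to 149 CPM in Tem1WT/WT and from 105 to 233 CPM in Tem1lacZ/lacZ (0.95 ± 0.16). Ublcp1, a phosphatase of nuclear proteasomes, ran from 22.5 to 30.7 CPM and from 33.4 to 49.1 CPM (0.73 ± 0.13). 2010107E04Rik ran from 12.8 to 17.8 CPM and from 19.4 to 37.8 CPM (0.84 ± 0.15). The non-coding transcript of the ROSA26 locus, Gt(ROSA)26Sor, ran from 3.47 to 4.70 CPM and from 5.36 to 8.78 CPM (0.79 ± 0.14). Tmem181b-ps (0.83 ± 0.14) is a pseudogene whose reads may be shared with its near copies, so its value is uncertain.

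**Figure D2:**
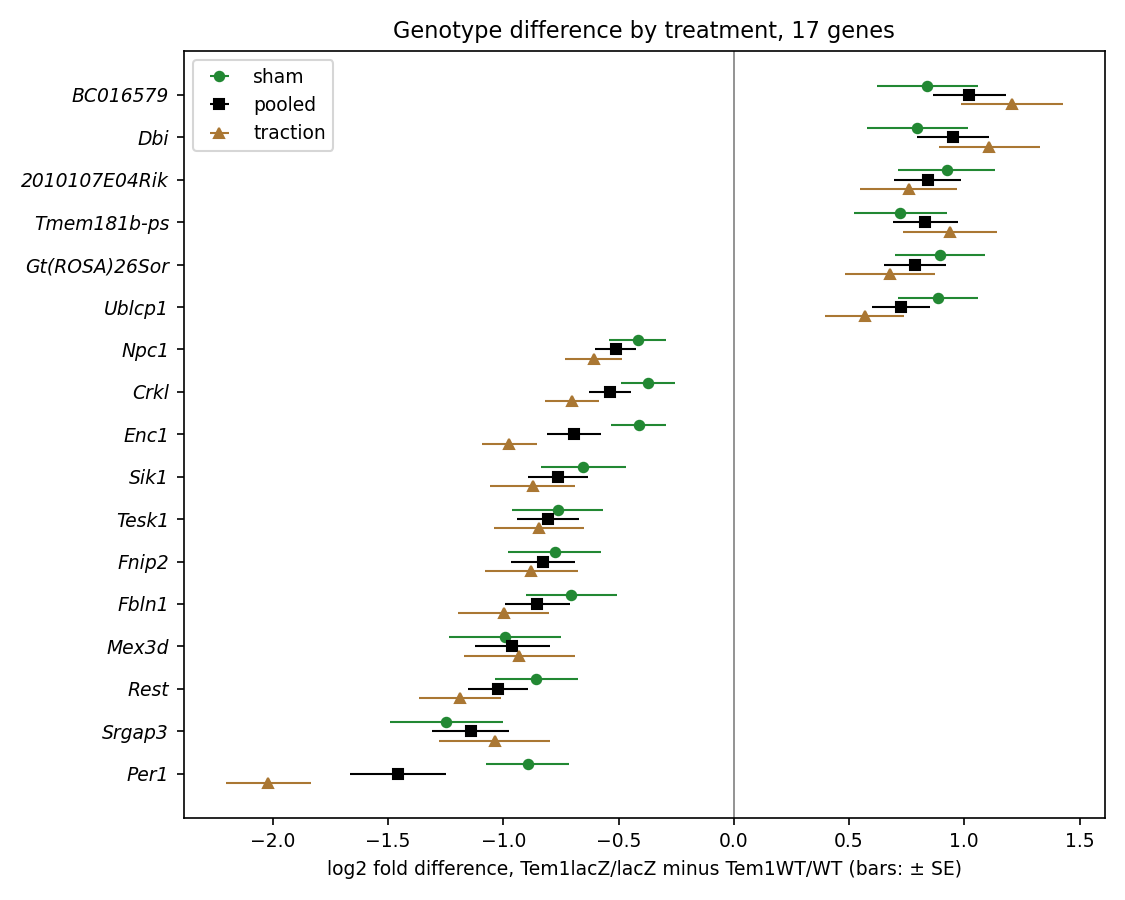
Log2 difference between Tem1lacZ/lacZ and Tem1WT/WT scars (horizontal axis) for 17 of the 20 genes with the smallest p, in sham (green circles), in traction (brown triangles) and pooled (black squares), with bars of ± SE. Cd248, Erdr1 and G530011O06Rik are off the scale and not drawn. Per1 and Enc1 lie further from 0 in traction than in sham.

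RefSeq promoters (GRCm38.p6) were read for these genes because several had moved together, and 10 of the 20 matched an entry. In the 250 bases before each start, 2 motifs were searched: the cAMP response element TGACGTCA and the E-box CACGTG that clock factors bind. Each reads the same on both strands, and neither overlaps the other. These genes had 14 windows, since some have more than 1 start. The cAMP element was in 2 of them, the only windows of Tesk1 and Crkl. The E-box was in 3, both windows of Fbln1, which overlap, and 1 of the 2 windows of Per1. Over all 32851 promoter windows of this length, 508 (1.55%) held the cAMP element and 1978 (6.02%) the E-box. The sequences follow 5′ to 3′ on the gene's strand, with the motif in capitals. They lie at chr11:69098699-69098948 (Per1), chr15:85205699-85205948 (Fbln1), chr4:43442027-43442276 (Tesk1) and chr16:17451735-17451984 (Crkl), all on the plus strand. A match is a description of the letters and not a binding site.
Per1: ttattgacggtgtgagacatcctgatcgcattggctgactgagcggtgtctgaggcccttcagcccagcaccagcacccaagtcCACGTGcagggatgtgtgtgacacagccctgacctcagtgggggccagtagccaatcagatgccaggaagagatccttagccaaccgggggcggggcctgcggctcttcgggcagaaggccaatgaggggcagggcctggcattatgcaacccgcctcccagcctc
Fbln1: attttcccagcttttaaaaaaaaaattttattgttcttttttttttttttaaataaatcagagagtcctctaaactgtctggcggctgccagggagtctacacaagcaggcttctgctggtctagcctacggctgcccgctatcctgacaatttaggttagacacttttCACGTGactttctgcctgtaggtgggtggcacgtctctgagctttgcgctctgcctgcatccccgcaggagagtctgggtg
Tesk1: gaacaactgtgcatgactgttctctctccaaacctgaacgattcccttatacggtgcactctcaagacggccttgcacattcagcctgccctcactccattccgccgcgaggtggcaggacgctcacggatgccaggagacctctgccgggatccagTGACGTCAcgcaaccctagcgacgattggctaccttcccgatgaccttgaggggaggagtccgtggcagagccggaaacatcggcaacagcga
Crkl: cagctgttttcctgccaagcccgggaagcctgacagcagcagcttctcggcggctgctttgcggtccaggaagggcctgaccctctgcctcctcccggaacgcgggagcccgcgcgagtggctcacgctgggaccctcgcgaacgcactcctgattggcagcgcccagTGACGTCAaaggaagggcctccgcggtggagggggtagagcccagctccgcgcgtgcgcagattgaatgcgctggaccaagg

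The surroundings of Cd248 on chromosome 19 were described to show whether genes next to the targeted gene differed. Among the 102 tested genes within 1 Mb, no other gene was called by edgeR. An unadjusted p under 0.05 was found for 38 of them (37.3%) and a DESeq2 call for 23 (22.5%). Within 10 Mb the values were 99 of 272 (36.4%) and 55 (20.2%), and over the 607 genes of chromosome 19 without Cd248 they were 194 (32.0%) and 98 (16.1%). Over all chromosomes but Y, the share of genes called by DESeq2 reached 17.3%, on chromosome 17, and at an unadjusted p under 0.05 it reached 32.2%. The shares within 1 Mb and within 10 Mb of Cd248 were above those of every such whole chromosome. Windows of like size elsewhere were not compared, so this does not show that genes near Cd248 differed more often. Of the 10 nearest tested genes, 2 had an unadjusted p under 0.05, beside 27.0% of all genes. DESeq2 called 0 of these 10, beside 14.5% of all genes. No test was made of these differences, and the genes of a region are not independent.

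Of the 5 tested genes on either side, Npas4, Slc29a2, B4gat1, Brms1, Rin1, Yif1a, Cnih2 and Rab1b had log2 differences from -0.59 to 0.18, with unadjusted p from 0.0584 to 0.596. The other two, Gm30627 and Tmem151a, were lower in Tem1lacZ/lacZ. Tmem151a, a membrane protein gene, ran from 0.199 to 1.54 CPM in Tem1WT/WT and from 0.173 to 0.439 CPM in Tem1lacZ/lacZ (-0.89 ± 0.40, unadjusted p = 0.0487). Gm30627 ran from 0.109 to 0.925 CPM and from 0 to 0.197 CPM (-2.51 ± 0.55, edgeR adjusted p = 0.0688). Its place was matched through an older symbol of Tmem151a, and is therefore uncertain. The non-coding gene LOC108168419, picked after its values were seen and without coordinates in the RefSeq table, held 245 reads over the Tem1WT/WT libraries and 31 over the Tem1lacZ/lacZ libraries. It ran from 0.547 to 1.29 CPM and from 0 to 0.214 CPM, without overlap (-2.80 ± 0.52, edgeR adjusted p = 0.0598, DESeq2 adjusted p = 1.66e-06).

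**Figure D3:**
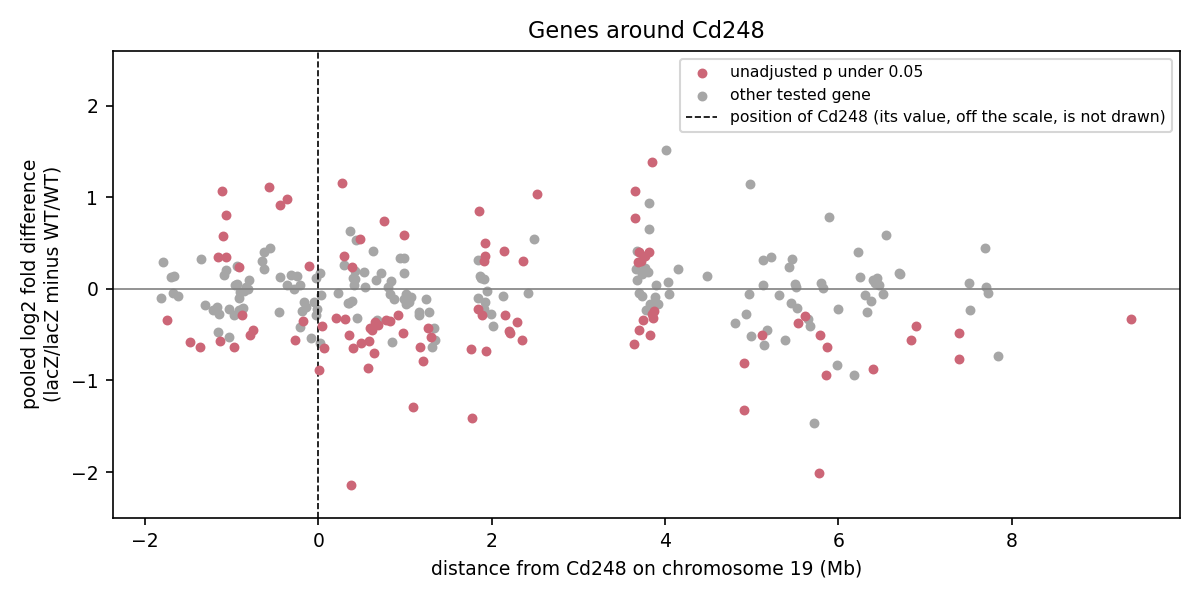
Pooled log2 difference (vertical axis) of tested genes within 10 Mb of Cd248 against their distance from it in Mb, with genes at an unadjusted p under 0.05 in red and other genes in grey. Cd248 at -10.47 and Gm30627, whose place is uncertain, are not drawn. Red points lie on both sides of 0 and of the gene.

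Among genes of the TGF-β pathway more were lower in Tem1lacZ/lacZ at an unadjusted p under 0.05 than among all genes, but none of them passed edgeR's test over all genes. Of 22 ligands, receptors, latent binding proteins and Smads, all tested, 20 had a log2 difference below 0, with a median of -0.50 (-0.40 in sham, -0.59 in traction) beside 0.00 over all genes. At an unadjusted p under 0.05, 13 were lower (59.1%, beside 15.2% of all genes) and 0 higher. DESeq2 called 10 (45.5%, beside 9.13%) and limma-voom 6, all lower. Over all genes limma-voom called 8.35%, in either direction. Lower without overlap within each treatment were 5 of the 22, beside 4.84% of all genes. Tgfb1, the ligand that drives collagen synthesis, stood at 31.4, 33.2 and 42.7 CPM in WTSH and at 22.9, 16.9 and 24.5 CPM in lacZSH. Under traction it stood at 188, 72.9 and 83.2 CPM in WTTR and at 25.6, 50.6 and 58.8 CPM in lacZTR. Each lacZ group lay below the WT group of its treatment, and the lacZTR scars overlapped the range of the WTSH scars (-1.05 ± 0.28, edgeR adjusted p = 0.0704, DESeq2 adjusted p = 0.0071). Tgfb2, a second ligand, ran from 13.6 to 37.3 CPM in Tem1WT/WT and from 9.52 to 15.03 CPM in Tem1lacZ/lacZ (-0.89 ± 0.21, edgeR adjusted p = 0.0696, DESeq2 adjusted p = 0.00362). Of 20 tested response genes of the pathway, 10 were lower (50%) and 0 higher at an unadjusted p under 0.05. DESeq2 called 7 (35%). Their median was -0.59. Itgav, the integrin subunit that helps to release latent TGF-β, ran from 108 to 199 CPM and from 59.3 to 100 CPM, without overlap (-0.76 ± 0.15, edgeR adjusted p = 0.0613).

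Collagen and matrix genes had a median of -0.61 over 37 tested, with -0.34 in sham and -0.96 in traction. At an unadjusted p under 0.05, 17 were lower (45.9%, beside 15.2% of all genes) and 0 higher. DESeq2 called 10, all lower (27%, beside 9.13%). Col18a1 and Col15a1, collagens of the basement membrane zone, had the smallest p. Col15a1 ran from 62.0 to 181 CPM with a median of 135 in Tem1WT/WT and from 33.1 to 139 CPM with a median of 54.4 in Tem1lacZ/lacZ (-0.94 ± 0.25, edgeR adjusted p = 0.071). Col18a1 had a difference of -0.81 ± 0.20 (edgeR adjusted p = 0.0696). Col1a1, the main fibrillar collagen of scar, stood at 3475, 4635 and 5368 CPM in WTSH and at 3049, 1536 and 2202 CPM in lacZSH. In WTTR it stood at 7601, 12290 and 23370 CPM and in lacZTR at 2700, 8500 and 7091 CPM. The sham groups were apart, whereas the traction groups overlapped (-1.12 ± 0.33, edgeR adjusted p = 0.0795, DESeq2 adjusted p = 0.0109). The 17 fibrosis genes that the study names were chosen by it on these samples and are no independent evidence of a direction. Of these, 12 were lower at an unadjusted p under 0.05 (70.6%, beside 15.2% of all genes) and DESeq2 called 10 (58.8%, beside 9.13%). Their median was -0.58. Ets1, a transcription factor of stromal and endothelial cells, ran from 48.3 to 155 CPM and from 31.4 to 64.5 CPM (-0.82 ± 0.19). Pdgfrb, the PDGF receptor of pericytes and fibroblasts, ran from 60.1 to 255 CPM and from 38.3 to 118 CPM (-0.87 ± 0.21, edgeR adjusted p = 0.0696).

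Among the 9 genes of the lectin family and its known binding partners, 7 were lower at an unadjusted p under 0.05, Cd248 among them. The share was 77.8%, beside 15.2% of all genes, and DESeq2 called 5 (55.6%, beside 9.13%). Both shares include Cd248, which the targeting itself removed, so they are higher than those of the other members alone. The paralog Cd93 had a difference of -0.70 (unadjusted p = 0.033) and Mmrn2, an endothelial matrix ligand of this family, one of -0.62 (unadjusted p = 0.00431). Thbd and Clec14a had unadjusted p of 0.104 and 0.593. These 4 were picked after their values were seen.

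Markers of stromal and vascular cells are set beside the 15.2% of all genes that were lower at an unadjusted p under 0.05 and the 9.13% that DESeq2 called lower. Of 17 fibroblast markers, 6 were lower at that threshold (35.3%) and 0 higher, but the list's median was 0.12 in sham and -0.71 in traction. Their summed level ran from 30950 to 128200 CPM in Tem1WT/WT and from 25450 to 60930 CPM in Tem1lacZ/lacZ. Of 18 blood endothelial markers 7 were lower (38.9%, median -0.38, DESeq2 6) and of 11 pericyte markers 3 (27.3%, -0.38, DESeq2 2). Of 12 myofibroblast and smooth muscle markers 2 were lower (16.7%, -0.36) and DESeq2 called 0, which is near or below the share of all genes. Cldn5, a tight junction protein of vessels, had a pooled difference of -0.44 ± 0.12 (DESeq2 adjusted p = 0.00741), with -0.44 ± 0.17 in sham and in traction. Kdr, the main receptor of VEGF, had one of -0.67 ± 0.18. The part of cell numbers in the matrix and TGF-β values was not tested.

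Immediate early genes, which cells switch on within minutes of a stimulus, were lower mainly under traction. Of 18 tested, 7 were lower (38.9%, beside 15.2% of all genes) and 0 higher at an unadjusted p under 0.05. DESeq2 called 5 (27.8%, beside 9.13%). The median was -0.80, with -0.12 in sham and -1.34 in traction, and -0.46 without WTTR replicate 1. Jund, an AP-1 subunit, did not overlap between genotypes, at 152 to 233 CPM in Tem1WT/WT and 107 to 138 CPM in Tem1lacZ/lacZ (-0.56 ± 0.13, edgeR adjusted p = 0.0696). Fosl2, another AP-1 subunit, ran from 119 to 518 CPM and from 98.2 to 172 CPM (-0.89 ± 0.23).

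Inflammatory genes differed by genotype mainly under traction. The 40 tested genes of inflammation and leukocyte migration had a median of -1.28, made up of -0.07 in sham and -2.78 in traction, and 22 of them had an unadjusted interaction p under 0.05, beside 8.91% of all genes. Without WTTR replicate 1 the median was -0.37. That scar stood highest on the first principal component, at 119.5. The other WTTR scars stood at 54.1 and 80.4 there, and the remaining libraries ran from -57.0 to 7.89. On the second component the other WTTR scars stood at -42.5 and -56.6, whereas WTTR replicate 1 stood at 79.25. Its neutrophil markers summed to 9143 CPM, while the median of the 6 Tem1WT/WT libraries was 352 CPM and Tem1lacZ/lacZ libraries ran from 253 to 626 CPM. Cxcr4, a chemokine receptor, had a difference of -0.36 in sham and -2.44 in traction, and Csf1, the growth factor of macrophages, of -0.41 and -1.29. Nos2, the inducible nitric oxide synthase, picked after its values were seen, had -0.71 in sham and -6.28 in traction. Of the 16 inflammation genes the study names, 8 were lower at an unadjusted p under 0.05 (50%, beside 15.2% of all genes). DESeq2 called 4 (25%, beside 9.13%), and the medians were -0.14 in sham and -1.39 in traction. Of 16 monocyte and macrophage markers, 3 were lower at an unadjusted p under 0.05 (18.8%, median -0.32), close to the 15.2% of all genes.

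**Figure D4:**
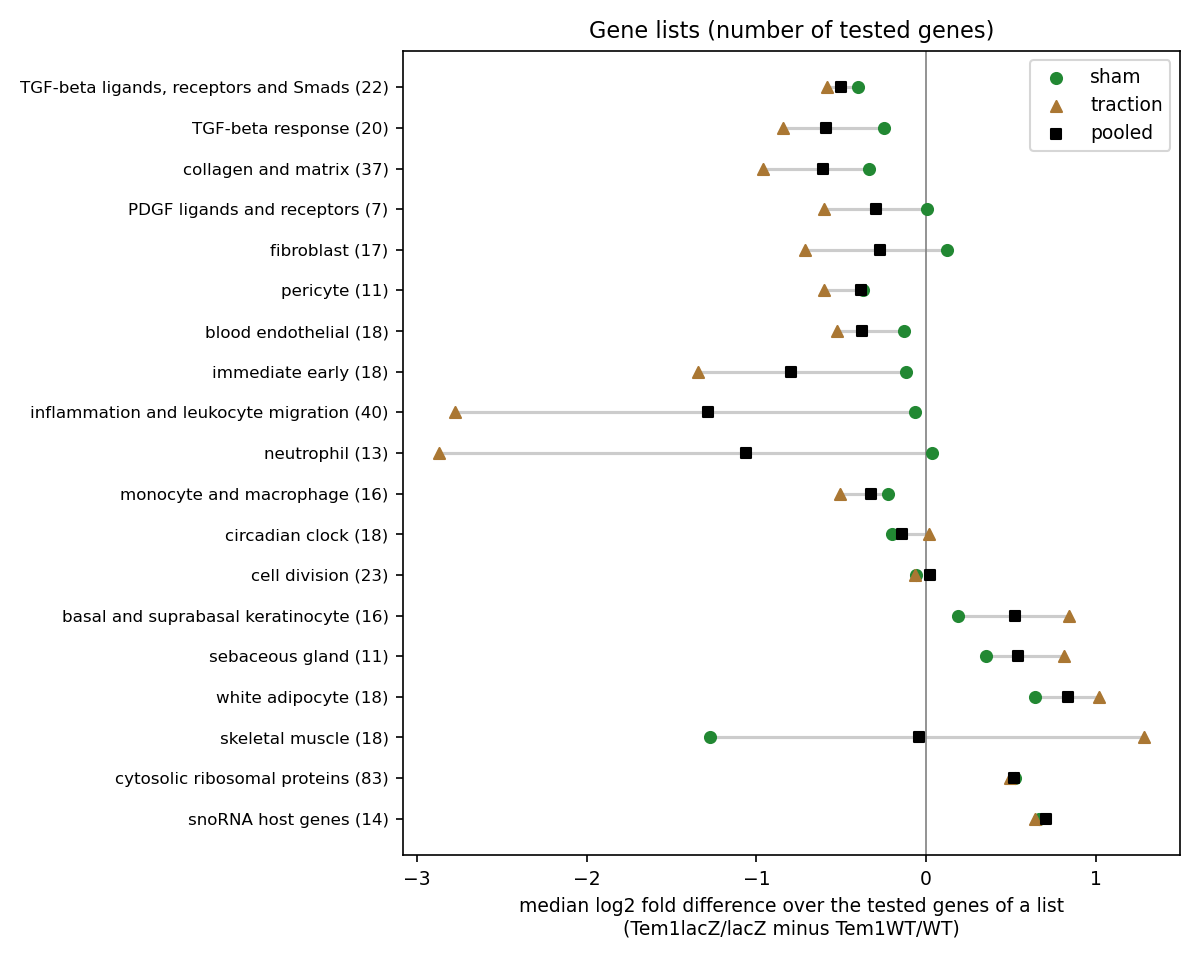
Median log2 difference (horizontal axis) over the tested genes of 19 gene lists, with the number of genes in parentheses, in sham (green circles), in traction (brown triangles) and pooled (black squares). Lists of TGF-β genes, matrix, ribosomal proteins and snoRNA hosts lie on 1 side of 0 in both treatments, while inflammation, neutrophil and skeletal muscle lists lie far apart in sham and traction.

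Genes of the translation machinery were among those with higher levels in Tem1lacZ/lacZ. Of 83 cytosolic ribosomal protein genes, all tested, 79 had a difference above 0. At an unadjusted p under 0.05, 72 were higher (86.7%, beside 11.8% of all genes). DESeq2 called 50 (60.2%, beside 5.40%) and limma-voom 30, all higher, and edgeR none. Over all genes limma-voom called 8.35%, in either direction. The median was 0.52, with 0.52 in sham and 0.50 in traction. Rps12 ran from 217 to 279 CPM in Tem1WT/WT and from 291 to 540 CPM in Tem1lacZ/lacZ, without overlap (0.76 ± 0.16, DESeq2 adjusted p = 0.00169). Rpl26 had a difference of 0.67 ± 0.15. Genes that host small nucleolar RNAs in their introns, which guide the modification of ribosomal RNA, went the same way. Of 14 tested, 10 were higher (71.4%, beside 11.8% of all genes) and 0 lower at an unadjusted p under 0.05. DESeq2 called 9 (64.3%, beside 5.40%), and the median was 0.71. Snhg5 ran from 13.99 to 18.6 CPM and from 19.4 to 36.9 CPM (0.71 ± 0.13, edgeR adjusted p = 0.0598). Both lists were put together after the values were seen.

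Over all genes the pooled difference moved with the length and GC content of the transcripts. Both were medians over all GENCODE transcripts of a gene, and not values of the transcript expressed in scars. Col1a1, for example, was given 428 bases and so fell in the shortest bin. The bins, the correlations and the correction below all rest on these rough values. Over 5 bins of genes by transcript length, the median pooled difference went from 0.07 for the shortest to -0.23 for the longest, and the share lower at an unadjusted p under 0.05 from 15.6% to 31.9%. Over 13657 genes the Spearman correlation of the pooled difference with length was -0.228 and with GC content -0.276, given as a description. The mean level of ribosomal protein genes, as a deviation from the 12-library mean in log2 CPM, was highest in lacZSH replicate 2 (0.62) and lacZTR replicate 1 (0.63) and ran from -0.34 to -0.06 in Tem1WT/WT. Of the other Tem1lacZ/lacZ libraries, lacZTR replicate 2 stood at -0.18, inside that range, lacZSH replicate 1 at -0.06, at its upper end, lacZTR replicate 3 at 0.06 and lacZSH replicate 3 at 0.31. With each library corrected for length and GC content, 67 of 83 ribosomal protein genes were still higher (median 0.47) and 0 lower, and of the snoRNA host genes 11 were higher (median 0.47, from 0.71). Of the 37 matrix genes, 9 were then lower (median -0.44), and of the 22 TGF-β ligands, receptors and Smads also 9 (median -0.33). Over all 18853 genes, 2110 were lower and 2259 higher at an unadjusted p under 0.05 in the corrected fit. Only the 17378 genes with a length were corrected, and the others entered that fit unchanged. In this fit all 20 genes with the smallest p kept their direction, 19 of them with a smaller difference, and the highest unadjusted p among them was 0.0146. Erdr1, among these 20, had no length and was not itself corrected. The share of lower genes among those at an unadjusted p under 0.05 went from 56.1% to 48.3%. RNA quality was not tested.

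**Figure D5:**
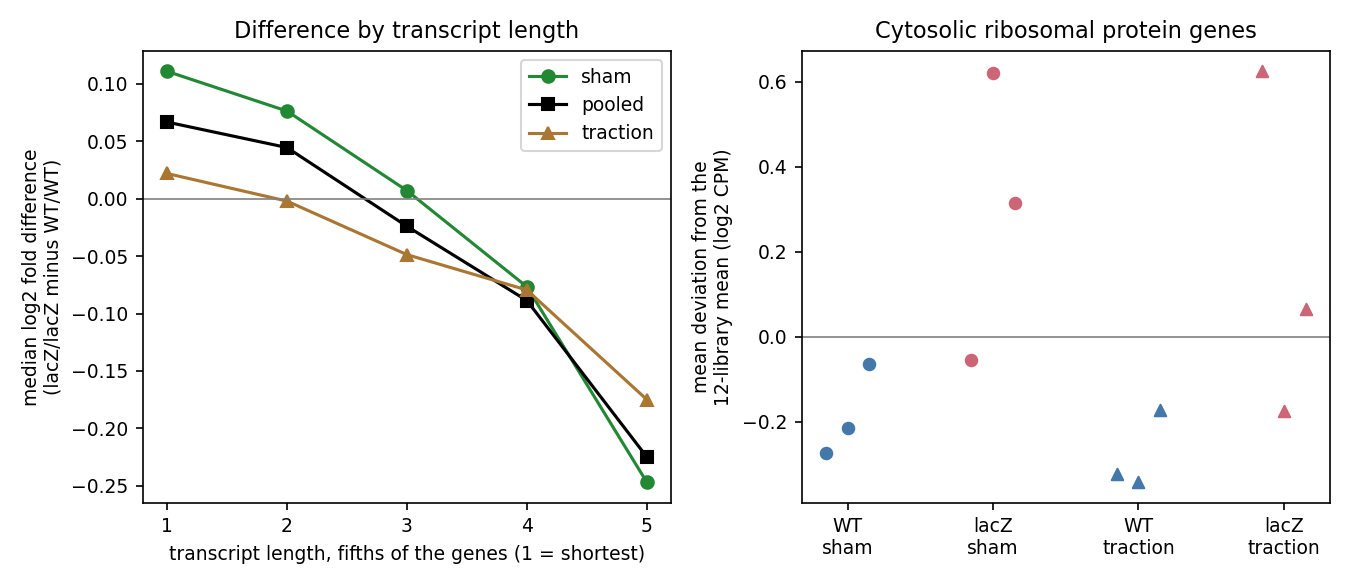
Left, median log2 difference between genotypes for 5 bins of genes by transcript length (median over all GENCODE transcripts of a gene), in sham (green), in traction (brown) and pooled (black). Right, mean deviation of cytosolic ribosomal protein genes from the 12-library mean in log2 CPM for each library, where lacZSH replicate 2 and lacZTR replicate 1 stand highest at 0.62 and 0.63.

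Sham and traction share no library, so the genotype difference was measured in separate mice in each. The log2 differences of the 18853 genes in sham and in traction had a Pearson correlation of 0.192 and a Spearman correlation of 0.297, across genes that are not independent. The genotypes did not overlap for 5052 genes (26.8%) within sham and for 5007 (26.6%) within traction. For 1435 genes (7.61%) this held in both treatments in the same direction, 912 lower (4.84%) and 523 higher (2.77%) in Tem1lacZ/lacZ, and for 94 (0.499%) in opposite directions. No gene passed edgeR's interaction test, with 1680 (8.91%) at an unadjusted p under 0.05, while DESeq2 called 69 and limma-voom 0.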

How the data were processed

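RNA-seq libraries of 12 mouse scars, 3 per group, were analysed. Per the labels and the study's methods, the authors prepared stranded mRNA libraries, trimmed reads with fastp 0.20.0, aligned them to GRCm38 (mm10) with HISAT2 2.1.0 and counted them with featureCounts 2.0.0. The deposited values are raw whole-number counts per gene, without normalization. The annotation, strand setting and treatment of multi-mapping reads were not given in the sources used here. Of 35976 genes listed, 18853 passed filterByExpr. TMM factors were used, and genotype plus treatment was tested with robust glmQLFit and glmQLFTest in edgeR 4.0.16 (R 4.3.3), with Benjamini-Hochberg adjustment. DESeq2 1.42.0 and limma-voom (limma 3.58.1) with the same model were alternatives. DESeq2 gave no adjusted p for 2747 genes. Differences within sham, within traction and between them came from a model of the 4 groups. The biological coefficient of variation was 35.8%, with 9 residual degrees of freedom. CPM used TMM-scaled totals. Coordinates (RefSeq, GRCm38) matched 18242 genes (96.8%), 579 by an older symbol, and transcript length (GENCODE vM21) 17378 (92.2%). The length and GC content of a gene were medians over all its GENCODE transcripts. Symbols of 27 genes look like dates or repeat. No 2 libraries of a group were identical. Tests were tried on simulated data first.

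Named were Cd248, called genes, the 20 smallest p, the 5 tested genes on either side of Cd248, and per list the called members or the 2 with the smallest p. The members and the 43 lists were chosen with earlier results of these data known, and 4 of the lists (ribosomal proteins, snoRNA hosts, Rest targets, distal X chromosome) and the length and GC correction after the values were seen. Alternatives were other filters, scalings, tests, models and thresholds, and each library left out in turn. Other assays of the study were not used here. The values of 1 gene that the naming rule covers are not reported here.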

Additional observations from a re-analysis of the deposited data

How the results depend on the processing

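Cd248 and Erdr1 were called with each of the 12 libraries left out, under DESeq2 size factors, upper quartile scaling, the fit that was not robust and the correction for length and GC content (chosen after seeing the data, 2 calls). Erdr1 had no length and was not itself corrected, so its call in that last fit says nothing about length or GC content. The genotype effect pooled over treatments, 3 genes, became 5 when every gene with at least 1 count was kept (G530011O06Rik and Per1 added) and 0 with at least 10 counts in every library, which removes Cd248 and Erdr1 by construction and left 4790 genes at an unadjusted p under 0.05. It was 10 for the average of both treatments in the 4-group model, 1 in the 6 sham libraries alone and 0 in the 6 traction libraries alone (2969 at an unadjusted p under 0.05), where Cd248 had an adjusted p of 0.154 in edgeR. In those refits Erdr1 missed the threshold (edgeR adjusted p = 0.15 and 0.154), whereas in the 4-group model, which takes its spread from all 12 libraries, edgeR called Erdr1 in sham (adjusted p = 0.0211) and traction (0.00322) and Cd248 in both (0.00108 and 0.000755), among 2 sham and 20 traction calls. The pooled count was 2741 with DESeq2 and 1574 with limma-voom. The causes of these differences were not tested. Leaving out 1 library gave 2 to 5 calls, 5 without WTTR replicate 1 (Per1 and Ublcp1 added). The interaction had 0 calls in edgeR, 69 with DESeq2 (47 lower, 22 higher), and 0 to 31 with 1 library left out, 31 without WTTR replicate 2. With the replicate number as a block, 3 genes were called (BC016579, Cd248, Erdr1) and the interaction had 0 calls. Whether the replicate numbers pair the samples is not known. Correlations of the deviations from group means ran from -0.324 to 0.25 over 18 same-numbered pairs, 8 of them above 0.1. Differently numbered pairs were not compared, so these values cannot decide it.

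No called difference changed sign under any alternative. Of the 43 list medians, 2 changed sign under upper quartile scaling (skeletal muscle, unfolded protein response), which moved the median of all genes to 0.09, 3 with length and GC correction (skeletal muscle, Schwann cell, cell division) and 6 without WTTR replicate 1 (T lymphocyte, hair follicle stem cell, melanocyte, skeletal muscle, unfolded protein response, Rest targets). Counts of 0, as for G530011O06Rik in 5 Tem1WT/WT libraries, are a limit of detection and not absence.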

Other observations

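Genes of the epidermis, glands and fat are given beside the 11.8% of all genes that were higher in Tem1lacZ/lacZ at an unadjusted p under 0.05 and the 15.2% that were lower. Of 18 white adipocyte markers all 18 had a difference above 0 (median 0.83, 0.64 in sham and 1.02 in traction), but only Cidea (0.83 ± 0.28, edgeR adjusted p = 0.0953), a lipid droplet protein, and Pparg (0.75 ± 0.30), the regulator of adipocyte formation, had an unadjusted p under 0.05 (11.1%), about the share of all genes. Their summed level ran from 741 to 5004 CPM in Tem1WT/WT, with a median of 3148 CPM. In Tem1lacZ/lacZ it ran from 998 to 14990 CPM, with a lower median of 2232 CPM. The highest Tem1lacZ/lacZ levels were those of lacZSH replicate 1 (14990 CPM) and lacZTR replicate 3 (7369 CPM). The other Tem1lacZ/lacZ libraries lay within the Tem1WT/WT range. Of 16 keratinocyte markers 4 were higher (25%) and 0 lower at an unadjusted p under 0.05 (median 0.52). Ivl, a protein of the cornified envelope, ran from 40.4 to 321 CPM and from 242 to 626 CPM (1.24 ± 0.36). Of 11 sebaceous markers 3 were higher (27.3%, median 0.54), with Awat1 (0.89 ± 0.23) and Awat2 (1.13 ± 0.31), both wax synthases, at the smallest p. Hair shaft genes had a median of -0.27 in sham and 1.26 in traction. Of the 24 tested, 14 had an unadjusted interaction p under 0.05, beside 8.91% of all genes. Of the 26 tested genes of PPAR signaling and fatty acid oxidation, 5 were higher (19.2%) and 2 lower (median 0.29), and DESeq2 called 1 in each direction.

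Skeletal muscle markers had a median of -1.28 in sham and 1.29 in traction, and their summed level ran from 514 to 20700 CPM within Tem1WT/WT, so scars held unequal amounts of muscle RNA. The melanocyte list went from -0.88 to 1.03 likewise. Hypoxia and glycolysis genes had medians of 0.17 in sham and -0.85 in traction, and Hk1 (-0.76 ± 0.26) the smallest p, and the pooled median went from -0.32 to -0.08 without WTTR replicate 1. Of 19 interferon response genes 2 were lower at an unadjusted p under 0.05 (10.5%, beside 15.2% of all genes). Their median was -0.41, and -0.15 without WTTR replicate 1. Of 19 genes of the unfolded protein response and secretion, 5 were lower (26.3%), led by Creb3l1 (-1.09 ± 0.22, DESeq2 adjusted p = 0.000604), a factor of collagen-secreting cells, while the list's median of -0.09 turned to 0.01 under upper quartile scaling. Of 7 PDGF ligands and receptors 2 were lower (28.6%, median -0.29). Cell division genes had 0 of 23 at an unadjusted p under 0.05 (median 0.02), and none was called by edgeR, DESeq2 or limma-voom. Cd4 of T cells had a lower level (-1.17 ± 0.30, DESeq2 adjusted p = 0.00553), while the T lymphocyte median of -0.33 turned to 0.44 without WTTR replicate 1. Ncam1, an adhesion molecule of nerve and Schwann cells, had a difference of -0.69 ± 0.18 and Kit, the receptor of mast cells and melanocytes, of -0.51 ± 0.16. Of the 8 mast cell markers, 3 including Kit were below 0 and 5 above (median 0.13). Fcer1a, also on that list, went the other way from Kit (0.54 ± 0.22). Among B lymphocyte and muscle regeneration lists no gene had an unadjusted p under 0.05 in edgeR or a call by DESeq2 or limma-voom. Lists of lymphatic endothelium, dendritic cells, mast cells, red cells, wound-edge keratinocytes and hair follicle stem cells had medians from -0.37 to 0.32 with at most 1 gene in each direction at that threshold. The causes of these differences were not tested.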
